A study of Mus musculus with 42 samples.

Results

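Embryoid bodies are aggregates in which embryonic stem cells (ESCs) begin to differentiate once the factors that hold them in the stem cell state are withdrawn. The microRNAs described here were measured in 3 of the 42 libraries of the study, namely ESCs in serum/LIF medium (day 0) and embryoid bodies at day 1 and day 4. The libraries were chosen by their labels, and all 256 microRNAs of the deposited table were taken, both as deposited and as a percentage of the column total (the share). The study as a whole followed mouse ESCs out of the naive state, with 32 polyA RNA libraries and 10 small RNA libraries. All 3 libraries came from the KH2-ISY1 line, an ESC line that carries a Flag-tagged Isy1 transgene switched on by doxycycline (Dox), and none of them received Dox. The day 0 cells grew in serum with LIF, a cytokine that sustains ESCs, and the embryoid bodies in a differentiation medium for 1 or 4 days. The header of the day 0 column reads KH1 where the label reads KH2, and no other column fits that label. The labels do not state whether the line is 1 clone.

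Each time has 1 library, which leaves no replicate error and allows no test. A microRNA was called higher or lower when it differed at least 2-fold in the same direction on both scales. Changes of share were computed as log2(share + 10), with the share in ppm of the column total, and changes of the deposited value as log2(value + 1). Only the 199 microRNAs with a mean of at least 100 ppm over the 3 libraries were tested in this way. Of the other 57, 25 had deposited values below 10 in all 3 libraries. The deposited names carry no arm (5p or 3p), so a value cannot be assigned to either arm of a hairpin.

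MicroRNAs are short RNAs cut from hairpin transcripts, and they repress messenger RNAs that pair with their seed (bases 2 to 8). Mouse ESCs express mainly the miR-290 cluster, whose members promote the G1 to S transition and pluripotency, and the related miR-302 cluster follows it in the epiblast of the embryo. The miR-17-92 cluster and its paralogs promote proliferation, the imprinted Dlk1-Dio3 locus encodes a large maternally expressed group, and let-7, which the RNA-binding protein LIN28 blocks, marks differentiated cells.

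The mature sequences of the members on which the results turn show which of them share a seed. The coordinates of a cluster run from the first to the last measured mature sequence. They come from RefSeq (mouse build GRCm38.p6), which matched 217 of the 256 names, and capitals mark the seed. In the miR-290 cluster, at chr7:3218639-3220837 on the plus strand, 3 of the sequences shown share the seed AAGUGCU. For miR-292 the RefSeq sequences used hold only the arm shown, so the seed of its other arm is not given here.
miR-290a-3p: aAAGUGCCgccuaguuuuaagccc
miR-291a-3p: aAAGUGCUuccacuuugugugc
miR-292a-5p: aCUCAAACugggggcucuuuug
miR-293-3p: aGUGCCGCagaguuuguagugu
miR-294-3p: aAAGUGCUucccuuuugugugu
miR-295-3p: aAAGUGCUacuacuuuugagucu
Of the miR-302 members, at chr3:127545238-127545687 on the plus strand, miR-302b and miR-302d carry that same seed in RefSeq, so 2 genomic clusters share it. For miR-302a the RefSeq sequences used also hold only 1 arm, so the seed of its other arm is not given here.
miR-302b-3p: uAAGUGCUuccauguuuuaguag
miR-302d-3p: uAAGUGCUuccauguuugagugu
The miR-17 group carries AAAGUGC, which holds the same 6 bases AAGUGC shifted by 1 position. Its members shown lie in miR-17-92 (chr14:115043684-115044496, plus strand), miR-106a-363 (chrX:52741697-52742563, minus strand) and miR-106b-25 (chr5:138165332-138165807, minus strand).
miR-17-5p: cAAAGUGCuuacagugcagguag
miR-20a-5p: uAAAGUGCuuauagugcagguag
miR-20b-5p: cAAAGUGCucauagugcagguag
miR-106a-5p: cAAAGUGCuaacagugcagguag
miR-93-5p: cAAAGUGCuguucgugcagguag
Of the Dlk1-Dio3 locus (chr12:109563710-109743784, plus strand), 3 members not called lower at day 1 are shown first, then 3 that were. All 6 had a higher share at day 4 than at day 0. None of the 6 shares its seed with another.
miR-381-3p: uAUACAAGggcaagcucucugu
miR-379-5p: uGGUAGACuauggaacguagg
miR-410-3p: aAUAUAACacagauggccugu
miR-541-5p: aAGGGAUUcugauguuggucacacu
miR-134-5p: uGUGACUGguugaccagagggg
miR-382-5p: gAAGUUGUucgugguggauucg

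The microRNA profile went from 1 dominant microRNA to many. The column totals of the deposited values were 277427 at day 0, 138432 at day 1 and 48534 at day 4. At day 0, 1 microRNA (miR-292) held more than all others together, whereas it took 4 microRNAs to do so at day 1 and 12 at day 4. The 10 most abundant microRNAs held 82.7%, 72.5% and 46.8% of the total in that order. No microRNA was listed at 0 in any library, the lowest deposited values being 0.4, 0.4 and 0.3. Values below 10 numbered 43, 61 and 97, so low microRNAs are least certain at day 4, and the read depth behind the values is unknown.

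At day 1, 50 of the 199 tested microRNAs were called higher than in serum/LIF (25.1%) and 39 lower (19.6%). At day 4, 31 were called higher (15.6%) and 29 lower (14.6%). From day 1 to day 4, 33 were called higher (16.6%) and 32 lower (16.1%). The comparisons share libraries, and their lists overlapped in part: 19 microRNAs were called higher than serum/LIF at both days and 19 lower at both. The median of all tested microRNAs depended on the scale. It was 0.79 at day 1 and 1.02 at day 4 on the log2 share scale, but −0.17 and −1.43 on the deposited scale.

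The spread between other pairs of libraries gives a measure of how far such values differ. In share alone, 63.3% of the tested microRNAs differed at least 2-fold between day 1 and day 0, 65.8% between day 4 and day 0 and 53.3% between day 4 and day 1. Between serum/LIF cells with and without Dox, a pair that differs in transgene induction, the figure was 13.6%. In a table normalised apart, 2 libraries of V6.5 ESCs with Isy1 knocked down by siRNA (small interfering RNA) differed in 17.3% of 185 microRNAs. With the Dox-treated serum/LIF library as the day 0 reference in place of the untreated one, 25 microRNAs were called higher and 38 lower at day 1, and 17 higher and 25 lower at day 4, so the counts of higher microRNAs depend on which day 0 library is used.

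**Figure D1:**
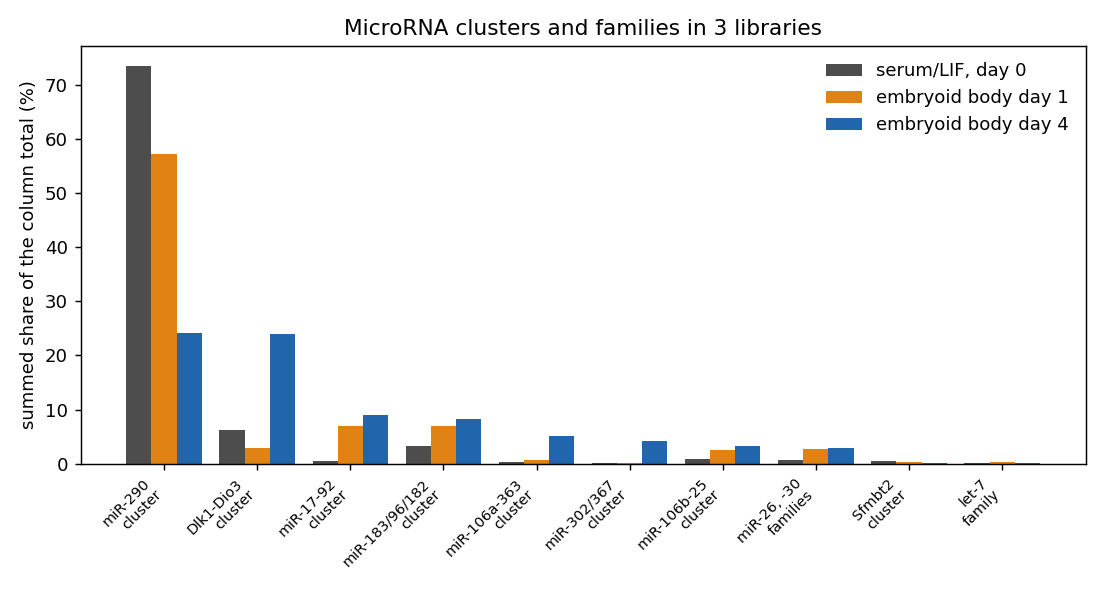
Summed share of the column total (%) of 10 microRNA clusters and families in serum/LIF ESCs (grey), day 1 embryoid bodies (orange) and day 4 embryoid bodies (blue), 1 library each. The miR-290 cluster goes from 73.5% to 24.2%, and the Dlk1-Dio3 cluster from 6.20% to 23.9% after 2.93% at day 1.

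The miR-290 cluster was the largest group at every time, and its decline was uneven among its members. Its 7 measured members summed to 204013 deposited units at day 0, 79249 at day 1 and 11743 at day 4, which is 73.5%, 57.2% and 24.2% of the totals. The Dox-treated serum/LIF library held 69.9%, and 2i/LIF cells, the start of a separate course into EpiLCs (epiblast-like cells, a model of the embryo's epiblast), held 74.8%. EpiLCs held 43.1% at 6 h and 40.9% at 48 h. The day 4 embryoid bodies therefore had the lowest share of this cluster among the 7 KH2-ISY1 libraries. Per microRNA, however, the cluster's median change at day 1 was 1.08 on the log2 share scale, above the 0.79 of all tested microRNAs.

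The net fall of the sum at day 1 lay in miR-292, since the other 6 together went from 44559 to 53622 deposited units. On that scale 4 of the 7 members were higher at day 1. The deposited value of miR-292 was 159455 in serum/LIF, 25627 at day 1 and 3278 at day 4, and its share 57.5%, 18.5% and 6.75%. It was called lower at both days, 6.22-fold at day 1 and 48.6-fold at day 4 on the deposited scale, or 3.10-fold and 8.51-fold in share. Within the cluster it went from 78.2% to 32.3% and 27.9%. Serum/LIF with Dox had 50.1% of miR-292 and V6.5 ESCs with control siRNA 47.1%, while the EpiLC libraries had 14.8% and 12.5%. The 2 V6.5 libraries with Isy1 knocked down held 45.006% and 41.998%, and 2i/LIF 47.0%. All libraries taken in serum/LIF or 2i/LIF of the KH2 table were thus above those taken after the change of medium.

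The rest of the cluster gained share at day 1 and returned to its starting share by day 4. Without miR-292 its members summed to 16.1%, 38.7% and 17.4%. miR-295, one of the members with the seed AAGUGCU, had deposited values of 3954, 9139 and 888.5 and a share of 1.43%, 6.60% and 1.83%. miR-290 went from 253.1 to 1062 and then 80.0 deposited units. These were the 2 members called higher at day 1, out of 7, against 25.1% of all tested microRNAs. miR-293, the second most abundant member at day 0 and the most abundant microRNA at day 1 and day 4, stood at 32312, 34052 and 4406 deposited units, or 11.6%, 24.6% and 9.08%. miR-291a lost least by day 4 on the deposited scale, with 2417, 4096 and 1023 deposited units and a share of 0.871%, 2.96% and 2.11%. miR-294 stood at 5171, 4894 and 1963 deposited units, and its share went from 1.86% to 3.54% and 4.04%. From day 1 to day 4, 4 of the 7 members were called lower and none higher, against 16.1% and 16.6% of all tested microRNAs.

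The miR-302 cluster appeared between day 1 and day 4. Its members miR-302b and miR-302d share the seed AAGUGCU with miR-291a, miR-294 and miR-295 of the miR-290 cluster. All 4 measured members were called higher at day 4, against serum/LIF and against day 1, and none was called at day 1. Of all tested microRNAs, 15.6% were called higher at day 4 against serum/LIF and 16.6% against day 1. miR-302a, miR-302c and miR-302d passed the minimum mean only through their day 4 values, so the filter fixed in part that 4 of 4 were higher. miR-302b had deposited values of 65.4 at day 0, 22.1 at day 1 and 1275 at day 4. miR-302d stood at 7.1, 7.4 and 487.7, miR-302a at 7.3, 3.4 and 214.6, and miR-302c at 0.4, 0.4 and 40.7. The day 0 and day 1 values of miR-302a, miR-302c and miR-302d lie among the lowest in the table, so their folds are poorly determined. The best measured member, miR-302b, was 19.5-fold higher at day 4 than in serum/LIF on the deposited scale and 111-fold higher in share.

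As a group miR-302 held 0.0289% of the total at day 0, 0.0241% at day 1 and 4.16% at day 4. In the EpiLC course it went from 0.0512% in 2i/LIF to 0.356% at 6 h and 0.570% at 48 h, below the day 4 embryoid bodies. The mature miR-302b and miR-302d sequences differ at 3 of 23 positions. Even so, at day 4 the miR-290 cluster still exceeded miR-302 in share, 24.2% against 4.16%. The hairpins of both clusters whose 3p arm carries the seed AAGUGCU in RefSeq (miR-291a, miR-294, miR-295, miR-302b and miR-302d) had a summed share of 4.19%, 13.1% and 11.6%, and a deposited sum of 11614, 18158 and 5637. miR-302a was not counted, since the sequences used hold only 1 of its arms, so the group may be incomplete. The sums hold both arms, so the amount of the seed itself is not known from them. Share and deposited value differ in direction at day 4.

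**Figure D2:**
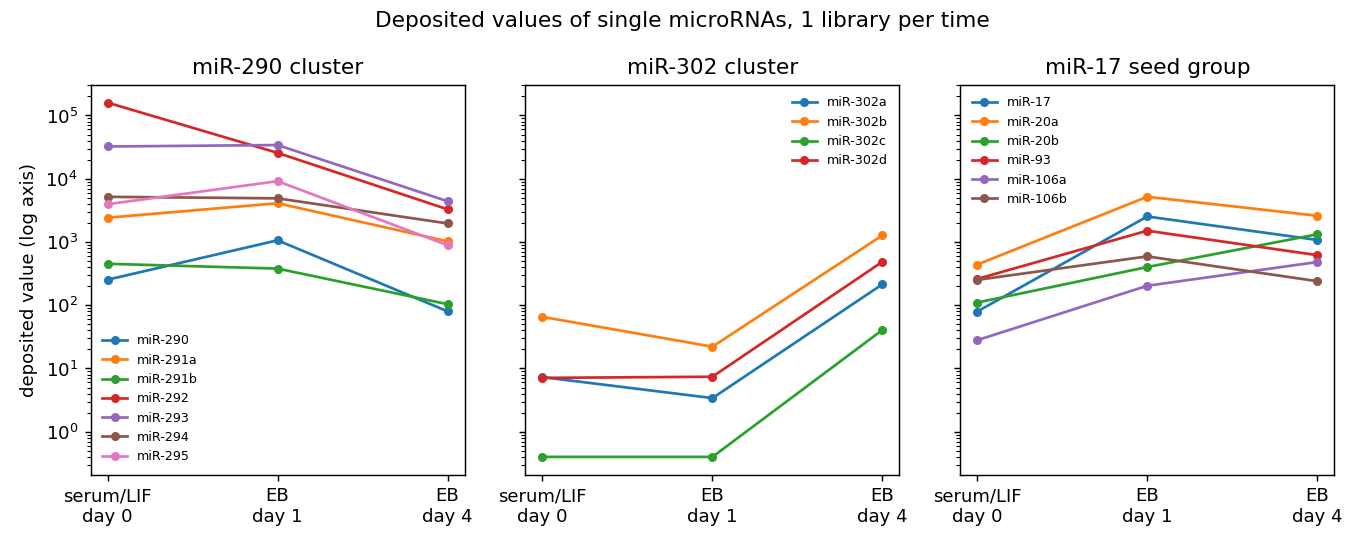
Deposited values (log axis) of the members of the miR-290 cluster, the miR-302 cluster and the miR-17 seed group in serum/LIF ESCs and in embryoid bodies (EB) at day 1 and day 4, 1 library per point. miR-292 falls from 159455 to 3278, miR-302b lies at 65.4 and 22.1 before reaching 1275, and miR-17 goes from 79.4 to 2529 by day 1.

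The miR-17-92 cluster, by contrast, was higher as early as day 1. Its 6 measured members summed to 1268 deposited units at day 0, 9733 at day 1 and 4354 at day 4, a share of 0.457%, 7.03% and 8.97%. At day 1, 5 of the 6 were called higher and none lower, against 25.1% and 19.6% of all tested microRNAs. The exception, miR-92a, had 468.9, 619.7 and 407.1 deposited units. miR-17 had the largest change of share of any called microRNA at day 1, with deposited values of 79.4, 2529 and 1076, a change of 5.95 on the log2 share scale and 4.98 on the log2 deposited scale. miR-20a stood at 439.3, 5183 and 2596 and became one of the 10 most abundant microRNAs at both days.

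At day 4 the members of miR-17-92 parted. miR-17, miR-18a and miR-20a remained called higher than serum/LIF, while miR-19a (55.9, 341.2 and 48.8 deposited units) and miR-19b (186.3, 833.6 and 147.6) were back near their day 0 values on the deposited scale. In share both still exceeded day 0, by 2.26 and 2.16 on the log2 scale, so the 2 scales part here. Serum/LIF with Dox held 0.671% of the cluster. 2i/LIF held 0.806%, and EpiLCs 4.94% at 6 h and 6.61% at 48 h.

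The X-linked paralog, miR-106a-363, gained most of its share after day 1. Its share was 0.242%, 0.636% and 5.19%. All 4 members were called higher from day 1 to day 4, against 16.6% of all tested microRNAs. Of the 4 members, miR-20b and miR-106a were also called higher at day 1 against serum/LIF, as were 25.1% of all tested. miR-20b had deposited values of 110.2, 401.4 and 1321, and miR-106a 28.0, 203.0 and 481.7. miR-18b (145.9, 80.0 and 198.6) and miR-363 (386.7, 196.5 and 519.5) were lowest at day 1. In the EpiLC libraries the cluster held 0.825% and 1.32%. In the other paralog, miR-106b-25, which lies in an intron of Mcm7, miR-93 had 260.2, 1506 and 618.5 deposited units. Transcripts of Mcm7, a subunit of the replicative helicase, stood at 1932, 2852 and 2731 normalised units in the polyA libraries of the same labels, which is under 2-fold apart.

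The 6 hairpins whose 5p arm carries the seed AAAGUGC in RefSeq (miR-17, miR-20a, miR-20b, miR-93, miR-106a and miR-106b) had a summed share of 0.421%, 7.52% and 13.0%, both arms included. Against 25.1% and 15.6% of all tested microRNAs, all 6 were called higher at day 1, and all but miR-106b at day 4. Their mature sequences are near copies: miR-17-5p differs from miR-106a-5p at 1 of 23 positions and from miR-20a-5p and miR-20b-5p at 2 each. How the authors divided reads among such copies is not given in the sources used here, so the split between single members is uncertain. miR-19b and miR-92a are encoded in both miR-17-92 and miR-106a-363 and were counted here with miR-17-92.

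**Figure D3:**
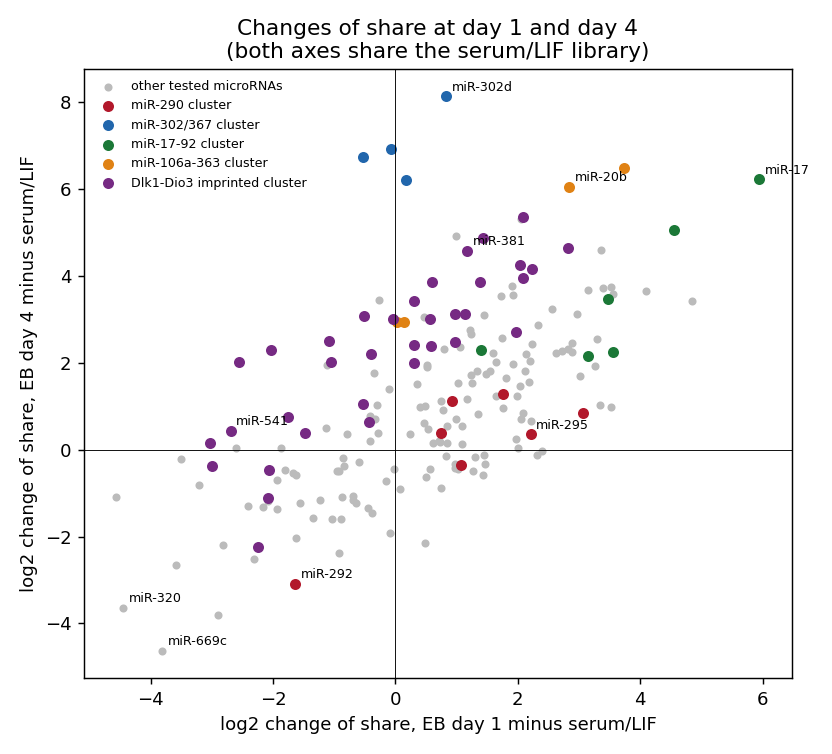
Change of share (log2) against serum/LIF at day 1 (x axis) and day 4 (y axis) for the 199 tested microRNAs, with 5 clusters coloured. Both axes use the same serum/LIF library, so some slope is built in. The miR-302 members lie near 0 on the x axis and between 6.21 and 8.14 on the y axis, and miR-17 is high on both.

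The Dlk1-Dio3 microRNAs went down and then up, and by day 4 their share was close to that of the miR-290 cluster. The 38 measured members, 35 of them tested, summed to 17212 deposited units at day 0, 4061 at day 1 and 11621 at day 4. Their share was 6.20%, 2.93% and 23.9%. From day 1 to day 4, 17 of 35 were called higher and none lower, against 16.6% and 16.1% of all tested microRNAs. All 35 gained share, by 0.01 to 4.58 on the log2 scale (median 2.46, against 0.43 for all tested microRNAs). Against serum/LIF, 9 were called higher at day 4 and 2 lower, against 15.6% and 14.6% of all tested. Some members, among them miR-487b, miR-376c and miR-377, passed the minimum mean only through their day 4 values. The filter thus fixed in part these gains at day 4. In share alone 31 of 35 exceeded day 0, but on the deposited scale only 19 did. No other KH2-ISY1 library reached such a share: serum/LIF with Dox held 7.94%, 2i/LIF 6.48%, and EpiLCs 6.06% at 6 h and 7.91% at 48 h. On the deposited scale the order differs, since those libraries had sums of 31214, 25431, 14429 and 18118, all above day 4.

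Day 1 divided the members. At that time 6 of 35 were called higher and 12 lower than serum/LIF, against 25.1% and 19.6% of all tested microRNAs. miR-541 was the most abundant member at day 0, with 4975 deposited units, and stood at 383.5 at day 1 and 1184 at day 4. miR-134 had 1024, 85.9 and 732.6, miR-370 had 819.4, 99.0 and 708.7, and miR-382 had 1093, 65.5 and 214.1. These 4 belong to 12 of the 199 tested microRNAs that were called lower at day 1 and called higher again from day 1 to day 4. Of the 12, 8 lie in this locus, which holds 35 of the 199. The other 4 of these 8 are miR-409, miR-433, miR-434 and miR-667. The reverse course, higher at day 1 and lower from day 1 to day 4, was called for 14 microRNAs. In either course both calls use the same day 1 library, so they are not independent.

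Some members of the locus were not called lower at day 1. Among them miR-381 had 548.9, 618.4 and 2316 deposited units and became the most abundant member and the fifth most abundant microRNA at day 4, at 4.77% of the total. miR-379 had 1107, 386.7 and 1650, and miR-300 had 825.8, 399.4 and 1178, so both were lower at day 1 on the deposited scale without being called. miR-543, with 1345, 140.1 and 49.6, and miR-485, with 109.3, 11.8 and 8.6, were called lower at both days and were lowest at day 4 on the deposited scale.

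**Figure D4:**
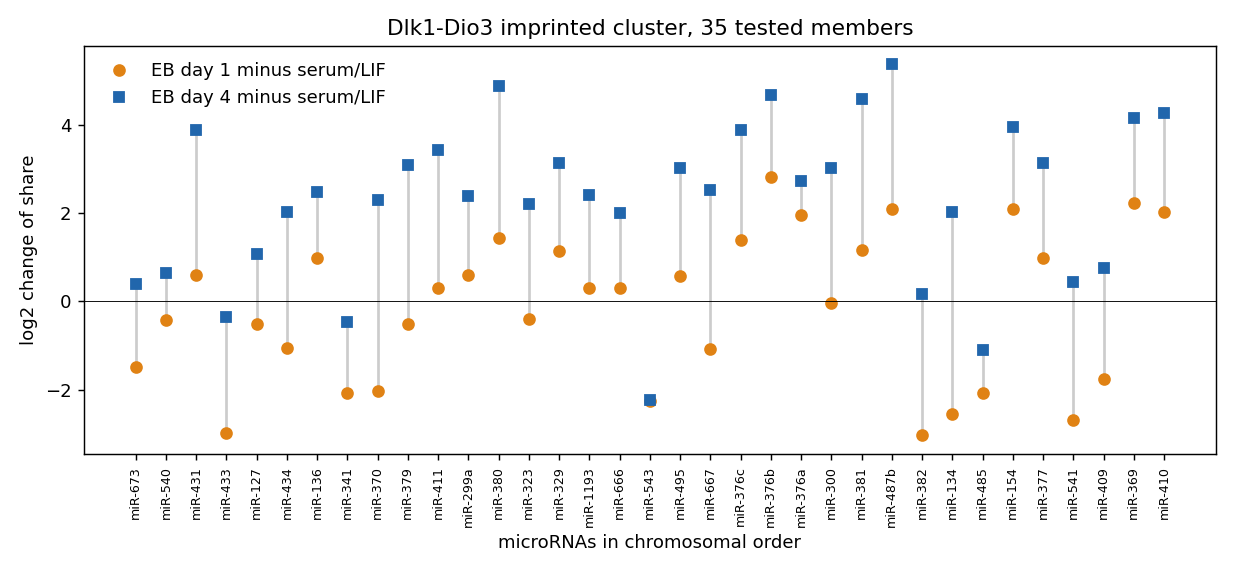
Change of share (log2) against serum/LIF for the 35 tested Dlk1-Dio3 microRNAs in chromosomal order, at day 1 (orange circles) and day 4 (blue squares), with a grey line joining both values of each microRNA. Day 4 lies above day 1 for all 35, by only 0.01 for miR-543, and low and high day 1 values are interspersed along the locus.

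The direction at day 1 moved with base composition. Of the 19 Dlk1-Dio3 members at or below the locus's median G+C content (47.7%), 14 gained share at day 1, with a median change of 0.97, whereas of the 16 above it 4 did, with a median of −1.28. From day 1 to day 4 the medians of both groups were alike, 2.46 and 2.31. Over the 178 tested microRNAs with a RefSeq sequence, the median change of share at day 1 was 1.25 in the 64 with the lowest G+C, 0.98 in the 55 in the middle and −0.29 in the 59 with the highest. At day 4 these medians were 2.00, 1.27 and 0.91, and from day 1 to day 4 0.45, 0.03 and 0.90. Pearson's r between G+C and the change, across microRNAs of 1 pair of libraries and given as a description, was −0.36, −0.21 and 0.12. The same measure was −0.54 for EpiLCs at 6 h against 2i/LIF and −0.32 for serum/LIF with against without Dox. Where a microRNA has both arms in RefSeq, G+C is the mean of the arms. The part of base composition in the changes was not tested.

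**Figure D5:**
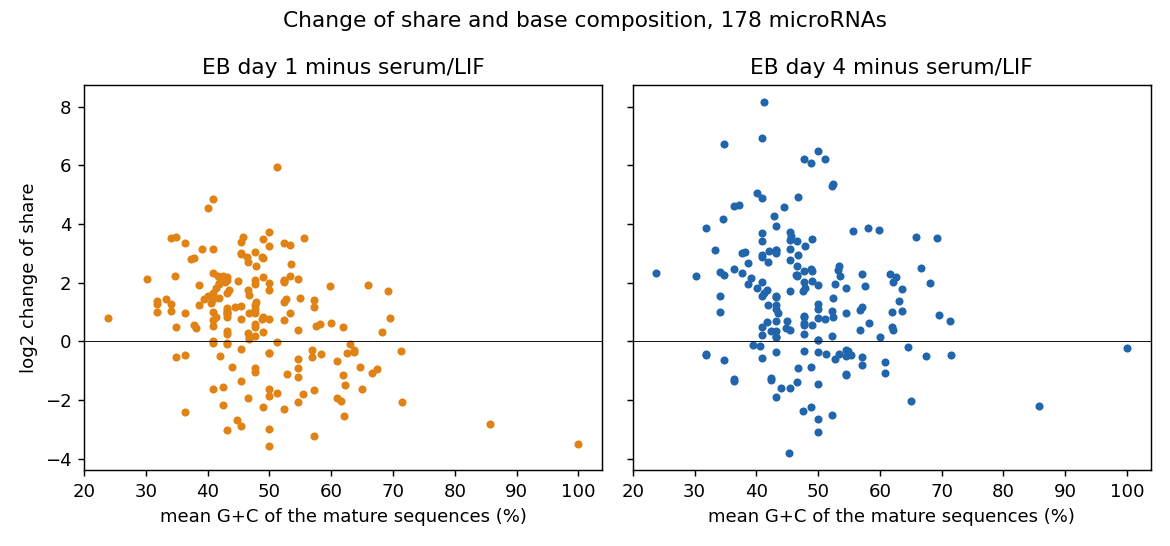
Change of share (log2) against serum/LIF at day 1 (left) and day 4 (right) for 178 microRNAs, plotted against the mean G+C content of their mature sequences (%). The 59 microRNAs with the highest G+C have a median of −0.29 at day 1, below the 1.25 of the 64 with the lowest.

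Beside the dip and return of the Dlk1-Dio3 microRNAs stood a like course of some fibroblast transcripts in the polyA libraries of the same labels. ESCs in serum are often grown on feeder fibroblasts, which the labels do not mention. Of 7 listed feeder fibroblast genes 5 were measured, with a summed level of 267.1 normalised units at day 0, 113.1 at day 1 and 805.0 at day 4. Thy1, a surface protein of fibroblasts and other cells, had 134.8, 16.5 and 161.9, and Col1a1, a collagen chain, 44.3, 4.38 and 123.1. Col1a2 had 0.23, 0.57 and 43.1, and Col3a1, a defining collagen of these cells, was at 0.23 at day 0 and listed at 0 on days 1 and 4. Vim, an intermediate filament gene of many cell types, did not dip, with 87.5, 91.6 and 476.9, and made up much of the day 4 sum. In serum/LIF with Dox the sum was 111.4, with Thy1 at 51.9 and Col1a1 at 8.81. The Dlk1-Dio3 microRNAs held 7.94% in the small RNA library of that condition. Whether these transcripts come from other cells was not tested, and neither was their part in the microRNA values. In bulk samples a change in the share of a cell type and a change in RNA per cell cannot be told apart.

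The 11 microRNAs listed as typical of mesenchymal cells did not share the dip, with a summed share of 1.47%, 2.88% and 1.56%. At day 1, 6 were called higher and none lower. At day 4, 1 was called higher and 2 lower. Among all tested microRNAs, 25.1% were higher and 19.6% lower at day 1, and 15.6% and 14.6% at day 4. miR-27a had 222.4, 689.4 and 184.6 deposited units, and miR-199a 9.2, 38.0 and 9.6, both highest at day 1. miR-143, a microRNA of smooth muscle and fibroblasts, went the other way with 537.6, 170.7 and 39.7, and miR-145a stood at 19.2, 22.0 and 3.7.

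The let-7 family stayed a small part of the total throughout. Its 10 measured members summed to 296.2, 289.7 and 60.3 deposited units, a share of 0.107%, 0.209% and 0.124%, and 5 of them were tested. let-7g was called higher at day 1 (50.9, 112.0 and 16.4), let-7a was called lower at day 4 (54.8, 19.6 and 3.5), and no member was called higher at day 4. The EpiLC libraries held more, 2.93% at 6 h and 1.66% at 48 h, against 0.472% in 2i/LIF. In the polyA libraries, transcripts of Lin28a, whose protein blocks let-7 maturation, stood at 1753, 1679 and 4591 normalised units and those of Lin28b at 396.1, 595.3 and 867.5. Of 11 listed let-7 targets, 5 were at least 2-fold higher at day 4 and none lower, among them Lin28a and Lin28b themselves. The background was 15.3% higher and 9.09% lower of 16422 genes at day 4. At day 1 it was 5.68% higher and 14.0% lower, and 0 of the 11 were higher and 1 lower.

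Several other clusters kept or gained share while the miR-290 cluster shrank. The cluster of miR-183, miR-96 and miR-182, expressed in sensory and stem cells, held 3.31%, 6.91% and 8.28%. miR-182 had 4281, 5401 and 2635 deposited units and was the third most abundant microRNA at day 4, yet its change was under 2-fold on the deposited scale, and in this cluster only miR-96 (432.0, 1535 and 377.9) was called, at day 1. The miR-26 and miR-30 families went from 0.717% to 2.75% and 2.91%. In them miR-26a had 811.2, 2044 and 1038 deposited units and was called higher at day 1.

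The miR-200 family, which maintains epithelial character, held 0.386%, 1.11% and 0.556%. Its member miR-141 was called higher at both days (4.2, 35.2 and 15.7 deposited units), whereas miR-200b (289.3, 259.6 and 56.7) was not called. miR-130a had 10.6, 190.1 and 24.5, the second largest change of share at day 1, while its relative miR-130b was called lower at both days (384.5, 74.7 and 22.2).

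Of the microRNAs of differentiated tissues some were called and others not. Among all tested microRNAs, 25.1% were called higher and 19.6% lower at day 1, and 15.6% and 14.6% at day 4. Of 6 neural microRNAs 1 was called higher at day 1 (miR-124, with 33.6, 94.4 and 5.8 deposited units) and 2 lower at day 4. miR-9, a microRNA of neural progenitors, had 287.1, 394.0 and 434.4 and was not called against serum/LIF, although its share was 3.10 higher on the log2 scale at day 4. The blood and endothelial list had a summed share of 0.0988%, 0.412% and 0.379%, and deposited sums of 274.2, 570.0 and 183.8. All 5 of its tested members were higher at day 1 on both scales, 2 of them called. At day 4 all 5 still exceeded day 0 in share, but 1 did on the deposited scale. Its member miR-142 had 46.7, 283.6 and 16.7, so it was called higher at day 1 and lower from there to day 4. miR-126, which lies in the endothelial gene Egfl7, had 117.4 at day 1 and 121.6 at day 4 and was not called. miR-196b, encoded in a Hox cluster, was called higher at both days (2.8, 10.1 and 38.2), and miR-152 at day 4 (11.0, 12.2 and 72.9). Both passed the minimum mean only through their day 4 values.

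The largest losses by day 4 lay mostly outside the clusters described so far. miR-669c, from the cluster in an intron of Sfmbt2, had 981.6, 33.6 and 6.5 deposited units and the largest change of share at day 4, −4.62 on the log2 scale. The list holds 22 measured microRNAs by family name, of which RefSeq places miR-466i on chromosome 13 and miR-467h on chromosome 9, outside Sfmbt2. Most are low. Of the 6 tested, which do not include miR-466i or miR-467h, 3 were called lower at day 4, against 14.6% of all tested microRNAs. At day 1, 2 of the 6 were called lower and 1 higher (miR-669a, with 14.5, 41.7 and 2.3 deposited units), against 19.6% and 25.1%. The summed share of the list was 0.545%, 0.245% and 0.118%. Its deposited sums were 1511, 338.8 and 57.3, and miR-669c made up 981.6 of the first, so much of the fall lay in that 1 member. Sfmbt2 transcripts, from a Polycomb group gene, stood at 101.6, 129.6 and 47.5 normalised units. How the loss of miR-669c relates to its host transcript was not tested. miR-672 had 1505, 99.4 and 18.5, and miR-320, which is made without the DROSHA and DGCR8 step, 1151, 25.1 and 15.7. miR-128 had 1043, 275.1 and 34.7 and miR-22 1050, 493.6 and 48.6. All 5 named here were called lower at day 4.

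The polyA libraries of the same labels show the state of the cultures at these times. Naive pluripotency transcripts were largely present at day 1 and low at day 4. Of 12 listed, 2 were at least 2-fold lower at day 1 (Klf4 and Tfcp2l1), against 14.0% of all genes. At day 4, 10 of the 12 were lower. Esrrb, a naive transcription factor, stood at 1699, 1868 and 36.9 normalised units, and Pou5f1, the core pluripotency factor, at 8539, 8119 and 3918. All 6 formative epiblast genes were at least 2-fold higher at day 4, as were 5 of 6 neuroectoderm and 6 of 7 endoderm genes, against 15.3% of all genes. Of all genes 9.09% were lower at day 4. Sox1, an early neural factor, had 22.3, 22.8 and 1380, and Ttr, a visceral endoderm transcript, was listed at 0 on days 0 and 1 and had 55.0 at day 4. Of 9 primitive streak and mesoderm genes, 3 were at least 2-fold higher at day 4 and 1 lower, with a median of −0.30 on the log2 scale. T, a primitive streak factor, had 2.5, 2.0 and 9.38, Eomes, another, 69.3, 40.3 and 56.3, and Hand1, a mesoderm factor, 20.7, 3.05 and 4.38. The loss of miR-292 at day 1 thus came while Esrrb and Pou5f1 were near their day 0 levels, and miR-302 was high at day 4, when formative, neural and endoderm transcripts were high too.

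Targets of the AAGUGC seeds did not move together. Of 13 listed miR-290 and miR-302 targets, 3 were at least 2-fold higher and 4 lower at day 1, and 4 higher and 1 lower at day 4. Over all genes 5.68% were higher and 14.0% lower at day 1, and 15.3% and 9.09% at day 4. Lefty1, an inhibitor of Nodal signalling, had 65.5, 589.5 and 3466 normalised units, Cdkn1a, a cell cycle inhibitor, 588.2, 231.4 and 552.5, and Lats2, a Hippo pathway kinase, 14.1, 22.0 and 25.0. Of 16 microRNA machinery genes 2 were at least 2-fold lower at day 1 (Prkra and Ago4), and at day 4 3 were higher (Ago1, Lin28a and Lin28b) and 0 lower. Dgcr8 stood at 100.2, 179.4 and 117.5, and Drosha at 549.1, 830.7 and 591.9. Isy1 itself, whose protein is needed for miR-290 processing in ESCs, had 328.0, 384.5 and 342.5, against 5096 with Dox.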

How the data were processed

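Small RNA was prepared with a New England Biolabs kit and polyA RNA with a TruSeq stranded kit, per the labels' protocols. The submitters' processing notes name Bowtie (no version) and 2 genome builds, mm9 and GRCm38, and do not say what each was used for. The counter, the microRNA reference set and the normalization are not given in the sources used here. The deposited microRNA and polyA values are of the unit signal, scaled by the authors in a way that is not stated, so read depth is unknown and no counting interval can be given. Shares, changes and list sums were computed from them with Python 3.11.15, pandas 2.3.3 and numpy 2.4.6. The calling code was run on simulated data with planted changes above the 2-fold threshold and less scatter than between the real libraries. That run checks the code and says nothing of the reliability of the calls. PolyA genes with a mean of at least 1 were compared as log2(value + 1), at 2-fold. Named microRNAs are the 10 most abundant of each library, up to 12 called microRNAs per direction and comparison with the largest change of share, and tested members of 21 lists. The members and lists were chosen with earlier results of these data known. Other scalings, pseudocounts, filters and folds were tried, and the Dox-treated serum/LIF library was tried as the reference.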

Additional observations from a re-analysis of the deposited data

How the results depend on the processing

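With 1 library per condition no value has a replicate error, leaving out a replicate was not possible, and read depth is unknown, so small values carry an error that cannot be given. No paired analysis was possible because each group holds 1 library, numbered in accession order only. Of 489 changes of share of named microRNAs and medians of lists, 133 had the other sign with deposited values only, 81 without the 10 most abundant microRNAs in the total, 57 with median-ratio factors and 59 with TMM-like factors. None of these was a called change, which for deposited values only is fixed by the calling rule. The direction of an uncalled change of share can thus depend on the scale. The called named microRNAs numbered 70 at day 1, 49 at day 4 and 60 from day 1 to day 4. All stayed past 2-fold in the same direction with deposited values only, which the calling rule already demands. All also did so without the 10 most abundant microRNAs in the total, and with median-ratio or TMM-like factors. With these scalings the median change lay between those of share and deposited value, and a called change is past 2-fold on both. Lower pseudocounts, with which all stayed past 2-fold too, can only enlarge a fold. These settings were thus little or no test of the calls. With pseudocounts of 100 ppm and 10 deposited units, 65, 45 and 57 stayed past 2-fold. The counts moved more. In share alone 87 microRNAs were higher at day 1, 102 at day 4 and 74 from day 1 to day 4. With deposited values alone 69, 109 and 101 were lower, in the same order. Without the 10 most abundant microRNAs in the total, 79 were lower at day 4 and 76 from day 1 to day 4. Median-ratio factors gave 61 lower at day 1 and 56 at day 4, and TMM-like factors 63 and 57. A minimum of 1000 ppm left 24 higher and 16 lower at day 1, 15 and 12 at day 4, and 21 and 13 from day 1 to day 4. A 4-fold threshold left 22 and 21, 15 and 11, and 11 and 7. With the Dox-treated serum/LIF library as the reference, an alternative chosen after seeing the data, 25 were higher at day 1 and 17 at day 4. The cause of these shifts was not tested, other than that the stricter filter and threshold admit fewer microRNAs.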

Other observations

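Some microRNAs outside the lists moved as well. In a stretch of the X chromosome that holds 7 measured microRNAs, miR-465b (67.2, 6.4 and 4.4 deposited units at days 0, 1 and 4), miR-465c (54.8, 8.4 and 3.8), miR-470 (53.3, 5.9 and 3.3) and miR-881 (113.2, 9.5 and 7.8), were called lower than serum/LIF at both days. The other 3 were too low to be tested, namely miR-741 (9.8, 6.0 and 1.8), miR-743b (3.7, 1.2 and 0.8) and miR-871 (33.2, 5.5 and 1.1). miR-181c had 48.4, 257.2 and 17.7 and miR-181d 766.3, 1030 and 89.1, and both were called lower from day 1 to day 4. miR-103 had 196.4, 582.1 and 331.3, and its near relative miR-107 3.9, 37.9 and 13.6. Both were called higher at day 1. miR-210, a microRNA induced by hypoxia, had 95.4, 183.6 and 201.4 and was called higher at day 4. miR-5115, the largest called loss at day 1, had 685.9, 13.2 and 56.0. These microRNAs were chosen for mention after their values were seen.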
